A study of Arabidopsis thaliana with 12 samples.

Results

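Splicing and gene expression were compared between seedlings of rbm25-1, a mutant of the Arabidopsis thaliana splicing factor gene RBM25 (AT1G60200), and wild-type seedlings (WT, ecotype Col-0), neither of them given abscisic acid (ABA), a stress hormone that also holds seeds dormant. The comparison was taken as every row of the authors' untreated gene table (19327 loci) and every intact row of their untreated splicing table (9849 events), with 28 damaged rows left out. It covers 6 of the 12 samples of the study, 3 of rbm25-1 and 3 of WT, all labelled as having had no treatment. The other 6 samples were rbm25-1 and WT seedlings sprayed with 0.1 mM ABA 6 hours before harvest, and they served here as a second look at the same genotypes (19244 loci and 11170 events). Poly(A) RNA came from bulked 2-week-old seedlings grown under long days on sucrose-containing agar after 4 days of stratification. The mutant is a single allele whose lesion the labels do not describe, and nothing states whether the replicates were separate cultures. The tables give 1 value per group and none per sample, so no SD stands beside any value, the overlap of replicates cannot be shown, the depth is unknown, and the p and q below are the authors'.

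RBM25 proteins carry an RNA recognition motif, which binds RNA, and a PWI domain. In mammals RBM25 is known to associate with the U1 small nuclear ribonucleoprotein, which recognises the donor (5′) splice site at the start of an intron, and to influence which exons are joined. A cassette exon is an internal exon that is either joined into the mRNA or skipped together with both neighbouring introns. Intron retention, the commonest form of alternative splicing in plants, leaves an intron in the mRNA, and alternative donors or acceptors move one end of an intron. Percent spliced in (PSI) is the share of the inclusion form of an event, in percent.

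The gene named in the genotype had 2.55 FPKM (fragments scaled to the transcript's length and to all mapped fragments) in rbm25-1 and 9.15 FPKM in WT, so that 27.9% of the WT level remained (chr1:22198347-22205347, build TAIR10). The loci before it in the table, emb1220, AT1G60160 and TPS10, stood at 101%, 117% and 107% of WT. On its other side ULP1D, for a SUMO protease, stood at 28.3% of WT, AT1G60230 at 34.7% and the merged pair AT1G60260,AT1G60270 at 69.3%, and the authors' deposited table has these at q of 0.000132, 0.000132 and 0.00477. A low level thus extended over neighbouring loci on 1 side of RBM25, and the part of those genes in the results below was not tested.

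The exons below carry the main splicing result. They were chosen as cassette exons that were included less in rbm25-1: the exon with the largest difference, 3 exons that were always included in WT, and exons of a kinase of splicing factors, of 2 splicing proteins and of a kinase of ABA and cold responses. The exon of AT5G06120 is added as 1 of the few that were included more. Each is written 5′ to 3′ from the RefSeq sequence of TAIR10.1, with the exon in capitals and 20 bases of each flanking intron in lower case.
AT2G45380, chr2:18701078-18701165, minus strand: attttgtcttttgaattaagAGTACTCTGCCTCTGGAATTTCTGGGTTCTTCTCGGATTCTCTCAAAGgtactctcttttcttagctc
SD3, chr4:12904-12979, minus strand: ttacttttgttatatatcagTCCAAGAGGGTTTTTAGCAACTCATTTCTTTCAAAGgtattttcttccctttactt
AT4G33080, chr4:15963970-15964045, plus strand: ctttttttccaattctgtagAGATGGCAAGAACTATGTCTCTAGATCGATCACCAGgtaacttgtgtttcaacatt
PAC, chr2:19680451-19680577, plus strand: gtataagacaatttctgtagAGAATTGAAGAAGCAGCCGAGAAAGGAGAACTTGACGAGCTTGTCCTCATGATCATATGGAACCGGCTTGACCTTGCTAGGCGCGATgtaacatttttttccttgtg
AFC2, chr4:12756125-12756213, minus strand: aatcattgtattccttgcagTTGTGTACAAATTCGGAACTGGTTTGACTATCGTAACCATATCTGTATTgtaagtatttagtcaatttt
SR45A, chr1:2258730-2258865, minus strand: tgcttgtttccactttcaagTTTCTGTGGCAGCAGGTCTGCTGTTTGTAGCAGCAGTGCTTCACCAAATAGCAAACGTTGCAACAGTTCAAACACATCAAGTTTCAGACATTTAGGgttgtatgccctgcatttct
LUC7B, chr5:5752604-5752693, plus strand: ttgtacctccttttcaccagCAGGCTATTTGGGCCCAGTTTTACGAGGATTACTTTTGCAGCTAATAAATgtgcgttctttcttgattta
CIPK3, chr2:11516407-11516500, minus strand: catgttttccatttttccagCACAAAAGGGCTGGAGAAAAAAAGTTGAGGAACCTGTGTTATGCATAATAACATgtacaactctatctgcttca
AT5G06120, chr5:1844717-1844823, plus strand: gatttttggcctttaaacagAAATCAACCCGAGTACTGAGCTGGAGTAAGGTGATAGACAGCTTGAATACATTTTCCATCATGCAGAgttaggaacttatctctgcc

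Cassette exons were skipped more often in rbm25-1, and of the large event types this one was the most one-sided. Of 500 cassette exons, 123 (24.6%) had an unadjusted p under 0.05 and a difference in PSI, against 6.12% of all 9849 events. Inclusion was lower in rbm25-1 for 119 of them and higher for 4, while over all events 3.74% were lower and 2.39% higher. Some genes, such as RHB1A, hold more than 1 of these exons, and with 1 cassette event per gene 109 were lower and 4 higher. The 123 exons had a median PSI of 76.5% in rbm25-1 and 95.4% in WT, with a median difference of -11.97 points in the authors' deposited table. The same lean held without a threshold on p, since 287 exons were below and 60 above WT. Of all events with a difference 603 had an unadjusted p under 0.05, and 0 passed the Benjamini-Hochberg adjustment over the table, where the lowest adjusted p was 0.263. Each event named below therefore rests on an unadjusted p.

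**Figure D1:**
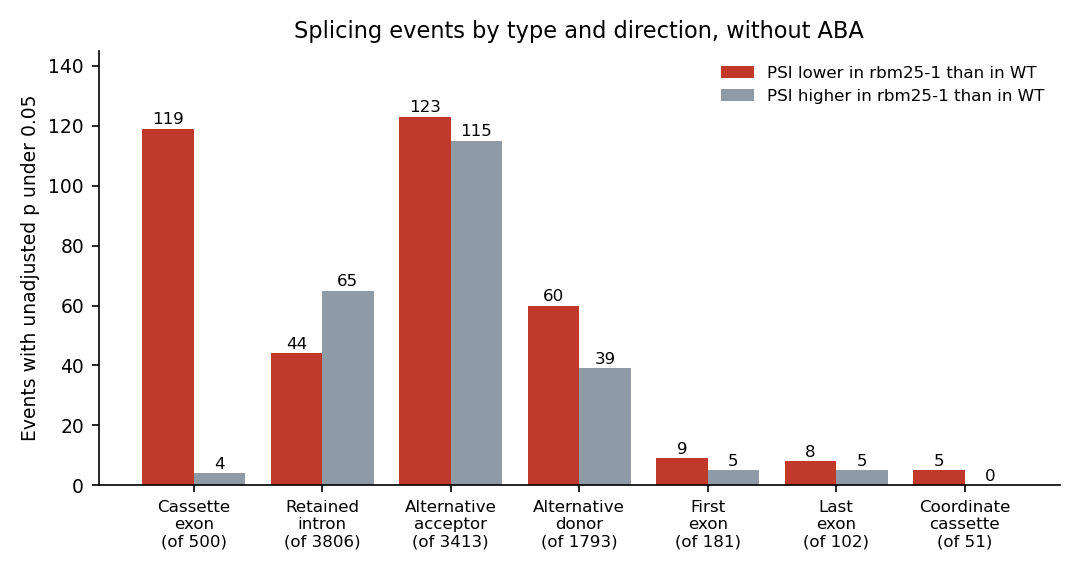
Number of splicing events (vertical axis) with an unadjusted p under 0.05 in each event type (horizontal axis, with the number of events measured), split into lower (red) and higher (grey) PSI in rbm25-1 than in WT. Among cassette exons 119 were lower and 4 higher, whereas the other large types held both directions.

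The exons ranged from ones that WT seedlings always included to ones they mostly skipped. In 51 of the 119 exons the WT value was 100% PSI, and their values in rbm25-1 ran from 64.7% to 98.6% with a median of 89.7%. Inclusion cannot exceed 100%, so exons of this kind could differ in 1 direction only. Exons with a WT value from 20 to under 80% PSI can move either way, and of 68 such exons 26 were lower in rbm25-1 at p under 0.05 and 0 were higher. Without the threshold on p, 58 of these 68 were lower and 9 higher. Of 78 exons under 20% PSI in WT, 13 were lower and 1 was higher at that p. The remaining 93 exons, from 80 to under 100% in WT, held the other 3 higher exons beside 29 lower ones, and without the threshold on p 59 of them were lower and 33 higher.

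**Figure D2:**
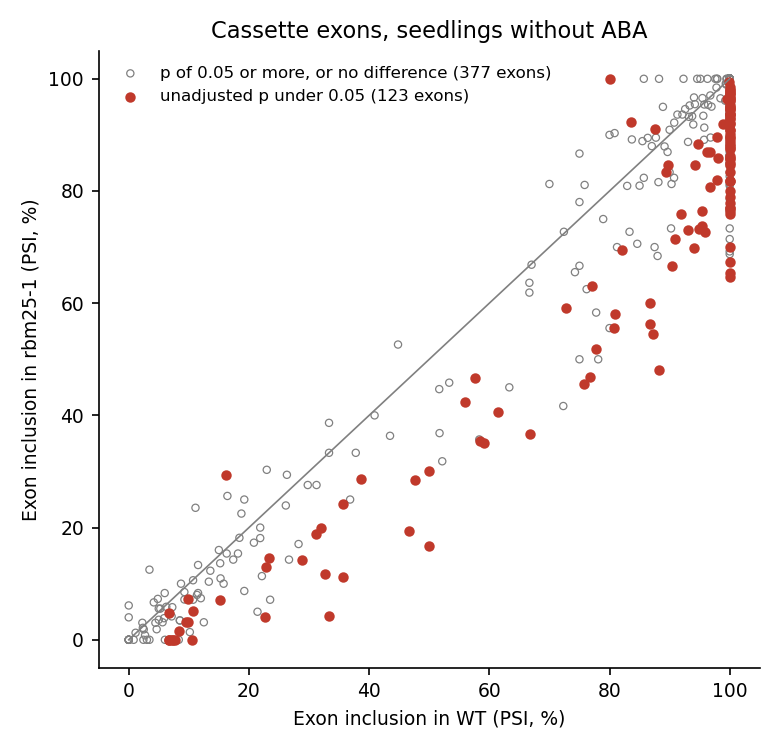
Inclusion of each of the 500 cassette exons in rbm25-1 (vertical axis, PSI in %) and WT (horizontal axis, PSI in %), with filled points for the 123 exons at an unadjusted p under 0.05 and open points for the other 377. The diagonal marks equal inclusion, and 119 filled points lie below it.

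AT2G45380, annotated as a myeloid leukemia factor, had the largest difference, with its 48-base exon (chr2:18701098-18701145) at 48.1% PSI in rbm25-1 and 88.2% in WT (p = 0.00148 in the authors' deposited table). With ABA the same exon stood at 48.1% in rbm25-1 and 82.3% in WT. The 36-base exon of SD3, for a subunit of the protein import complex of the inner mitochondrial membrane, was included at 67.3% in rbm25-1 and 100% in WT. PAC, which is needed for chloroplast development, had an 87-base exon at 76.9% in rbm25-1 and 100% in WT, and AT4G33080, for an AGC-type protein kinase, had a 36-base exon at the same pair of values. In these 4 chosen genes the length of the skipped exon is a multiple of 3. Over all 119 less included exons this held for 44.5%, against 43.7% of annotated internal exons.

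Exons of enzymes and signalling proteins were among the others. AT5G12240, annotated as an octanoyltransferase, had a 41-base exon at 72.6% PSI in rbm25-1 and 95.9% in WT, and its p of 0.000383 was among the lowest in the authors' deposited table. MAM3, which elongates the side chain of aliphatic glucosinolates, had an exon at 76.4% in rbm25-1 and 95.4% in WT. P5CS1, the enzyme that sets the pace of stress-induced proline synthesis, had a 104-base exon at 86.2% in rbm25-1 and 100% in WT. CIPK3, a kinase of ABA and cold responses, had a 54-base exon (chr2:11516427-11516480) at 11.7% in rbm25-1 and 32.7% in WT. PAT1, a GRAS factor of phytochrome A signalling, had an exon upstream of its coding sequence at 35.4% in rbm25-1 and 58.5% in WT, and NINJA, an adaptor of jasmonate repression, had one at 20% in rbm25-1 and 32.0% in WT. The 3 signalling genes thus used the exon in a minority of transcripts in rbm25-1, and CIPK3 and NINJA did so in WT too.

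The 4 exons with higher inclusion were those of AT3G42150, AT2G23985, NFD6 and AT5G06120, all named because they are so few. AT5G06120 had 100% PSI in rbm25-1 and 80% in WT, and NFD6 had 29.4% in rbm25-1 and 16.2% in WT. AT3G42150 and AT2G23985 differed by under 10 points, with 91.1% and 92.3% in rbm25-1 against 87.5% and 83.6% in WT.

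The less included exons were short, and so were the other cassette exons. Their median length was 71 bases, against 77 bases in the 377 cassette exons without such a p and 120 bases over 110775 annotated internal exons. The share lower in rbm25-1 was 27.9% of exons up to 50 bases, 25.7% from 51 to 75, 24.2% from 76 to 100, 22.5% from 101 to 150 and 11.1% above. Lengths that are multiples of 3 made up 44.5% of the less included exons, 40.3% of the other cassette exons and 43.7% of annotated internal exons. Of the 119 exons 109 are annotated exons, 100 overlap coding sequence, and the junction that skips the exon is annotated for 58. Skipping at the other 61 was therefore seen through junctions that the annotation does not list.

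Their splice sites resembled those of other cassette exons. A log-odds score of the donor site against annotated introns had a median of 6.28 in the less included exons, 6.24 in the other cassette exons and 7.06 in annotated internal exons. The same score of the acceptor site had medians of 6.78, 7.13 and 7.79. Guanine as the last exon base, which pairs with U1 RNA, was found in 67.2% of the less included exons, 72.1% of the others and 76.5% of annotated internal exons. The exons printed above for PAC, AFC2, LUC7B and CIPK3 end in T instead, and those for AT2G45380, SD3, AT4G33080 and SR45A end in G. The printed exon that was included more, of AT5G06120, ends in A. The introns before and after had median lengths of 227 and 178 bases, against 181 and 148 around the other cassette exons. These are descriptions of exons that share a genome, and no test was made of them.

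The samples with ABA share no library with the untreated ones and gave the same direction for most of these exons. Of the 123 exons 117 were measured in both tables, 112 of them had the same sign with ABA and 4 the opposite sign, and 71 also had p under 0.05 there. The median difference of the 117 with ABA was -11.43 points in the authors' deposited table. Over all events with p under 0.05 untreated, 462 of 561 (82.4%) had the same sign with ABA, and the share was 95.7% for cassette exons. In the table with ABA, taken on its own, 129 cassette exons were lower and 3 higher in rbm25-1 at that p, where 6.39% of all events passed it, 3.47% with lower and 2.92% with higher PSI.

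**Figure D3:**
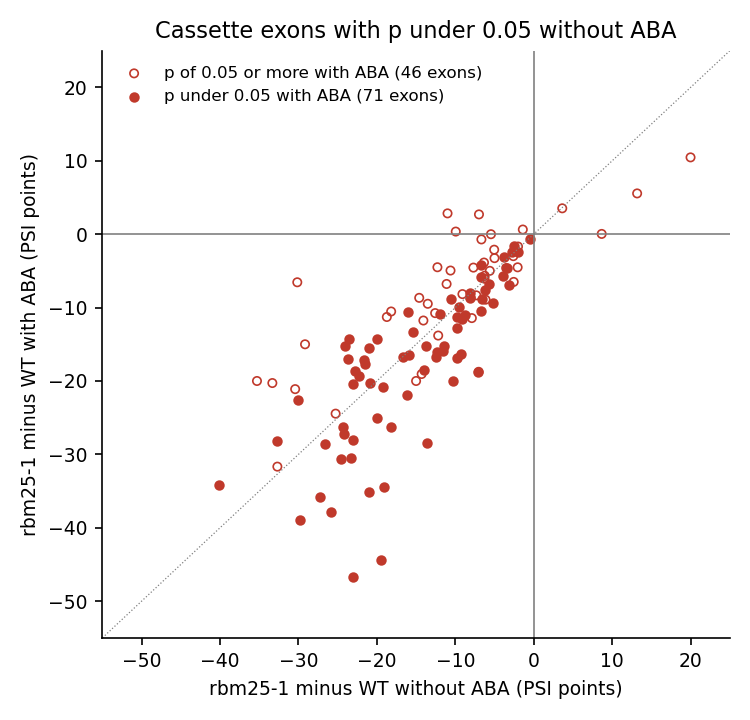
Difference in PSI between rbm25-1 and WT for the 117 cassette exons with p under 0.05 without ABA and a value with ABA, without ABA (horizontal axis) and with ABA (vertical axis), in percentage points. Filled points also had p under 0.05 with ABA (71 exons), the dotted line marks equal differences, and 112 points have the same sign on both axes.

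Retained introns were split between both directions. Of 3806 retained introns 109 (2.86%) had p under 0.05, a lower share than the 6.12% of all events, with 65 retained more and 44 retained less in rbm25-1. The introns retained more had a median PSI of 38.1% in rbm25-1 and 15.4% in WT, and those retained less had 27.8% in rbm25-1 and 52.4% in WT. Their median lengths were 100 and 125 bases, against 107 bases in the other 3697 introns. With ABA 160 of 4349 retained introns (3.68%) had such a p, again a lower share than the 6.39% of all events with ABA. Of these 116 were retained more and 44 less in rbm25-1.

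Among introns retained more was one of IMPA-2, for an importin that carries proteins into the nucleus (chr4:9134325-9134447, 123 bases), at 36.8% PSI in rbm25-1 and 10.5% in WT. With ABA it stood at 50% in rbm25-1 and 14.4% in WT. AT1G28060, annotated as pre-mRNA-splicing factor 3, had an intron of 79 bases at 81.0% in rbm25-1 and 54.6% in WT, and NRPB1, the largest subunit of RNA polymerase II, had 1 of 88 bases at 20.7% in rbm25-1 and 0% in WT. The largest difference of this type went the other way, in WCRKC1, a thioredoxin, whose 231-base intron was at 42.4% in rbm25-1 and 100% in WT (p = 0.00571 in the authors' deposited table). Both directions were therefore present among the largest differences.

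Alternative splice sites were also split. The shares of both types with p under 0.05 were near the 6.12% of all events. Of 3413 alternative acceptors 238 (6.97%) had such a p, with PSI lower for 123 and higher for 115. Of 1793 alternative donors 99 (5.52%) did, with 60 lower and 39 higher. Among these are 17 rows that repeat another row of the same site pair with the complementary PSI. Where an event held only 1 pair of sites, the site that shortens the intron was used more in rbm25-1 in 55 of 123 acceptor events and 24 of 64 donor events. Over all such events with a difference those shares were 50.4% and 46.9%.

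An acceptor of UMAMIT45, a transporter of the nodulin-like family, had the largest acceptor difference, with 100% PSI in rbm25-1 and 41.7% in WT, and CTR1, the kinase that restrains ethylene signalling, had an acceptor at 58.8% in rbm25-1 and 30.8% in WT. With ABA the CTR1 acceptor stood at 50% in rbm25-1 and 21.6% in WT. AT1G34750, of the protein phosphatase 2C family, had a donor at 100% in rbm25-1 and 40% in WT (p = 0.00398 in the authors' deposited table), and with ABA at 100% in rbm25-1 and 45.5% in WT. The donor of AT3G45050, an uncharacterized protein, was used at 70% in rbm25-1 and 35% in WT, and with ABA at 100% in rbm25-1 and 32.4% in WT. Its competing donors are printed here with 10 exon bases in capitals and 10 intron bases in lower case, since their choice moved the same way in both tables.
AT3G45050 donor used more in rbm25-1, chr3:16477156-16477175, plus strand: CGATTCAAAGgtttagcata
AT3G45050 donor used less in rbm25-1, chr3:16477119-16477138, plus strand: GAGTTTACAAgtacgttaaa
The donor used more lies 37 bases downstream and ends its exon in AG, and the other ends it in AA. By the log-odds donor score used above, the donor used more had the lower score, 4.94 against 7.05.

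Exons at the ends of transcripts made up few of the measured events, but the share that passed was not low. Of 181 alternative first exons 14 (7.73%) had p under 0.05, and of 102 alternative last exons 13 (12.7%) did. The share over all events was 6.12%. A last exon of AT1G53780, for a proteasome ATPase, stood at 21.4% PSI in rbm25-1 and 44.0% in WT, and a first exon of GSL03, a glucan synthase, at 0% in rbm25-1 and 16.7% in WT. Coordinate cassettes, in which neighbouring exons are skipped together, had 5 of 51 with such a p, all lower in rbm25-1, and in AT3G23255, annotated as an enzyme of tRNA modification, the pair stood at 55.6% in rbm25-1 and 86.4% in WT.

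Genes of the splicing machinery held several of the events. SR proteins bind exons and recruit splicing factors, and AFC kinases phosphorylate them. Of 75 events in 20 genes of a list of SR proteins and AFC kinases, 12 (16.0%) in 8 genes had p under 0.05, against 6.12% of all events and 24.6% of all cassette exons, 11 with lower and 1 with higher PSI in rbm25-1, and 7 of the 12 were cassette exons. Some of the 12 overlap, since events of AFC2, SCL33 and SR34 share a span, which leaves 9 distinct spans. The 49-base exon of the kinase gene AFC2 was at 46.9% PSI in rbm25-1 and 76.7% in WT, and a second exon of AFC2 at 63.0% in rbm25-1 and 77.1% in WT. SR45A, an SR-related protein, had a 96-base exon at 19.4% in rbm25-1 and 46.7% in WT. The SC35-like genes SCL33 and SCL30A had exons at 13.04% and 18.9% in rbm25-1, against 22.8% and 31.2% in WT, and RS41 had one at 4.69% in rbm25-1 and 6.69% in WT. SR30 had an acceptor at 33.3% in rbm25-1 and 49.3% in WT. All exons and sites in these values were included less in rbm25-1, and the list's exception was an acceptor of SR34 at 95.4% in rbm25-1 and 93.0% in WT.

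LUC7B, a relative of a U1-associated yeast protein, was 1 of 9 genes of U1, LUC7 and U2AF with a measured event and the one with p under 0.05. That is 1 of 27 events (3.70%), a lower share than the 6.12% of all events. Its 50-base exon outside the coding sequence (chr5:5752624-5752673) stood at 11.1% PSI in rbm25-1 and 35.7% in WT, and with ABA at 12.5% in rbm25-1 and 43.1% in WT. GRP7, a glycine-rich RNA-binding protein that regulates its own splicing, used an alternative donor at 17.4% in rbm25-1 and 40.0% in WT. With ABA the GRP7 donor stood at 52.6% in rbm25-1 and 40.2% in WT, the opposite direction. Its relative GRP8 had 12.6% in rbm25-1 and 7.59% in WT. The events of GRP7 and GRP8 were 2 of 51 (3.92%) in 5 autoregulated RNA-binding genes, also below the 6.12% of all events.

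**Figure D4:**
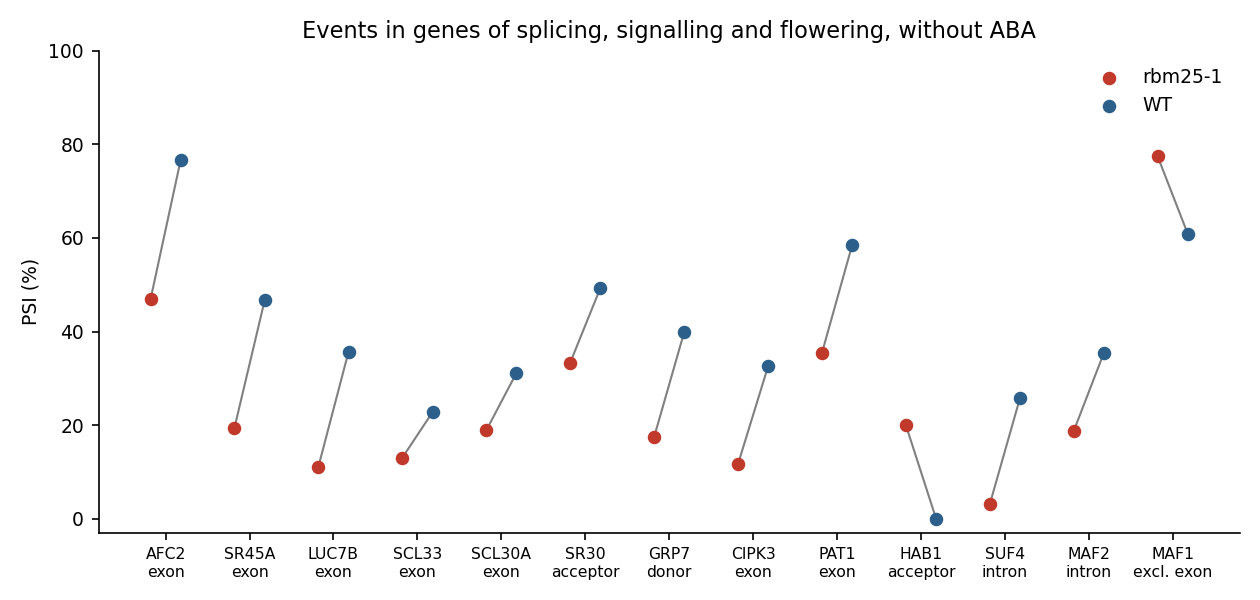
PSI in % (vertical axis) of 1 event per gene in rbm25-1 (red, left) and WT (blue, right), joined by a line, for cassette exons, alternative donors and acceptors, retained introns and a mutually exclusive exon. The 13 events were chosen, with their values known, from those at an unadjusted p under 0.05. Of the 13, 11 are lower in rbm25-1, while the HAB1 acceptor and the MAF1 exon are higher. Over all events at that p, 61.0% are lower.

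HAB1, a clade A protein phosphatase 2C that restrains ABA signalling, had an alternative acceptor 36 bases upstream of the annotated end of an intron (chr1:27392394-27392516). It was used at 20% PSI in rbm25-1 and 0% in WT without ABA (p = 0.0209), and at 26.9% in rbm25-1 and 8.24% in WT with ABA (p = 0.00902), both p from the authors' deposited tables. With ABA, retention of the whole intron was also listed, at 44.2% in rbm25-1 and 15.1% in WT. Both acceptors are shown with 20 intron bases in lower case and 10 exon bases in capitals.
HAB1 acceptor used more in rbm25-1, chr1:27392461-27392490, plus strand: tcccctacatgaaacattagATCCTCCGGT
HAB1 annotated acceptor, chr1:27392497-27392526, plus strand: cctcctctggaactatgcagGTGACAGATA

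A few regulators of flowering time held events. In a list of 10 such genes, 7 of 19 events (36.8%) had p under 0.05, against 6.12% of all events, but they lie in 3 genes. MAF1 alone holds 5 of the 7, and 2 of its rows give the same acceptor pair with complementary PSI. SUF4, a zinc finger protein that activates the floral repressor gene FLC, retained an intron of 519 bases at 3.12% PSI in rbm25-1 and 25.8% in WT, and with ABA at 0% in rbm25-1 and 23.5% in WT. MAF2, a MADS-box repressor of flowering, retained an 86-base intron at 18.8% in rbm25-1 and 35.5% in WT. MAF1, whose mutually exclusive exons are known to be chosen by temperature, included one of them at 77.4% in rbm25-1 and 60.8% in WT. The spliced forms of the SUF4 and MAF2 introns thus made up a larger share in rbm25-1 than in WT.

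At the level of gene expression, 2579 of 19327 loci were called at a q below 0.05 (13.3%), of which 1188 (6.15%) rose and 1391 (7.2%) fell in rbm25-1. With an adjustment over this table alone 516 rose and 610 fell, and the genes named below that then lose their call are pointed out. Most of these differences were small, with a median absolute log2 ratio of 0.475, and 142 rose and 130 fell at least 2-fold. The share called was 13.2% of loci with a mean level below 5 FPKM and 15.1% of those from 100 FPKM, so it varied little with level. Of 2420 single genes called, 2322 were measured with ABA, 1811 of them (78.0%) had the same sign there, 1110 were called in the same direction and 132 in the opposite one. With ABA 31.9% of loci were called, 17.7% higher and 14.3% lower in rbm25-1.

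Genes with a skipped exon stood on both sides of WT. The 119 exons lie in 109 genes, of which 104 had an expression value, and 17 of these (16.3%) were called, 7 higher and 10 lower, against 13.3% of all loci. Their median log2 ratio was -0.00, and 52 were above and 52 below WT. Where the exon length was a multiple of 3, 8.33% of 48 genes were called, 3 higher and 1 lower. Otherwise 22.8% of 57 were called, 4 higher and 9 lower, with 26 genes above and 31 below WT. Over all single genes, 1109 rose and 1311 fell, and the difference between the exon classes was not tested. AT2G30695, annotated as a bacterial trigger factor, whose 14-base exon stood at 70% PSI in rbm25-1 and 100% in WT, fell to 7.26 FPKM in rbm25-1, against 17.5 FPKM in WT. LUC7B rose to 17.4 FPKM in rbm25-1, against 11.5 FPKM in WT. Of 217 tested genes with any event of at least 10 points at p under 0.05, 43 were called, which is 19.8% of these genes and 1.78% of all called genes.

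The splicing regulators changed little in level. Of 21 SR proteins and AFC kinases, 4 fell and 0 rose, where 7.2% of all loci fell and 6.15% rose. Their median log2 ratio was -0.12 against -0.01 over all loci, and 19 of the 21 stood below WT. Those that fell were AFC2 (26.4 FPKM in rbm25-1 and 35.5 FPKM in WT), its relative AFC1, and the SR genes SR34B and RS2Z33, each at 74.4% to 77.3% of WT. Adjusted within the table, AFC2 kept its call and the other three lost it. Of 13 genes of U1, LUC7 and U2AF, LUC7B and LUC7RL rose 1.52-fold and 1.43-fold. PTB1, a polypyrimidine tract-binding protein, rose 1.33-fold among 5 autoregulated RNA-binding genes, and of 4 tested genes of nonsense-mediated decay, which removes transcripts with early stop codons, 0 passed the q of the authors' Cuffdiff table and 1 had an unadjusted p under 0.05. With ABA 8 of the SR and AFC genes were higher and 2 lower, where 17.7% of all loci were higher and 14.3% lower.

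**Figure D5:**
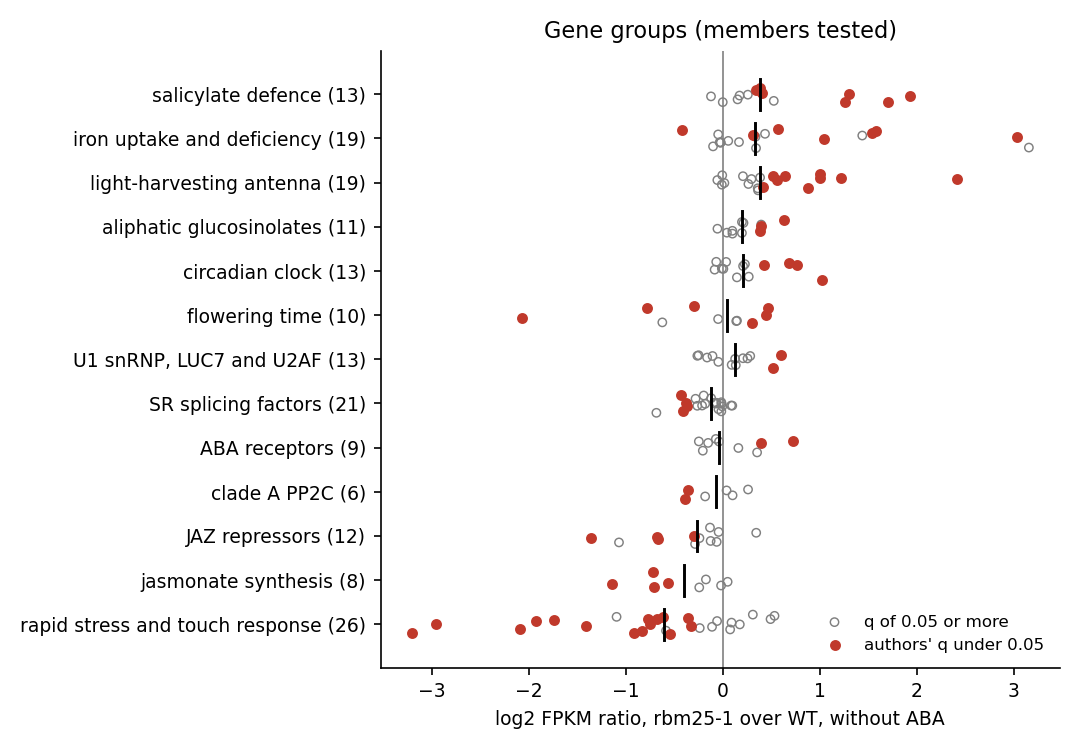
Log2 ratio of FPKM, rbm25-1 over WT, without ABA (horizontal axis) for each tested member of 13 gene lists (vertical axis, number of members tested), with filled points at the authors' q under 0.05 and a black bar at each list's median. Filled points of salicylate defence and the antenna lie to the right of 0, and those of jasmonate synthesis, JAZ repressors and rapid stress genes to the left.

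Many genes of the rapid response to touch, cold or wounding were lower in rbm25-1. Of 26 tested, 15 fell and 0 rose, where 7.2% of all loci fell and 6.15% rose, and the median log2 ratio was -0.60 against -0.01 over all loci. Of these, 13 kept their call with the adjustment within the table. This list, like the other gene lists, was chosen with earlier results of these data known. Its count beside the share of all loci therefore describes its members and is not a test. CBF1 and CBF2, activators of cold acclimation, fell to 0.460 and 0.673 FPKM in rbm25-1, against 1.96 and 2.26 FPKM in WT. ERF105 fell to 2.78 FPKM in rbm25-1, against 7.37 FPKM in WT, ERF104 to 21.4 against 40.4 FPKM in WT, and MKK9, a kinase of stress signalling, to 20.6 against 32.9 FPKM in WT. The deadenylase gene CAF1a stood at 12.9% of WT. In samples with ABA 6 of the listed genes were higher and 5 lower in rbm25-1, where 17.7% of all loci were higher and 14.3% lower. CAF1a had 40.1 FPKM in rbm25-1 and 62.0 FPKM in WT with ABA. ZAT10, at 26.3% of WT without ABA, had 90.8 FPKM in rbm25-1 and 74.5 FPKM in WT with ABA, the opposite direction. Whether the genotype difference of these genes depends on ABA was not tested.

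Jasmonate, the hormone of wounding, showed a like pattern. Against the 7.2% of all loci that fell, 4 of 8 tested genes of its synthesis fell and 0 rose, among them LOX3 (0.422 FPKM in rbm25-1 and 0.933 FPKM in WT). Of 12 JAZ repressors, which jasmonate itself induces, 4 fell and 0 rose (3 fell with the adjustment within the table), with JAZ7 at 2.61 FPKM in rbm25-1 and 6.69 FPKM in WT and JAZ9 at 63.9 FPKM in rbm25-1 and 102 FPKM in WT. The medians of these lists were -0.40 and -0.26 on the log2 scale. With ABA 3 synthesis genes were higher and 2 lower, where 17.7% of all loci were higher and 14.3% lower. LOX2, which fell to 61.2% of WT without ABA, was among the higher ones.

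Genes of salicylate defence moved the other way. Of 13 tested 7 rose and 0 fell, where 6.15% of all loci rose, and the median log2 ratio was 0.38. PR1, PR5, FMO1, ALD1 and AED1 of the 18 listed genes were not tested. EDS1, PAD4, WRKY70 and NIMIN1 lost their call with the adjustment within the table, which leaves 3 that rose. LURP1, which takes part in resistance to downy mildew, rose to 135 FPKM in rbm25-1, against 35.2 FPKM in WT, SARD1, a transcription factor that activates salicylate synthesis, to 2.64 FPKM against 1.096 FPKM in WT, and NIMIN1, a partner of the salicylate receptor NPR1, to 1.68 FPKM against 0.682 FPKM in WT. Of 11 genes of aliphatic glucosinolates, defence compounds of this plant family, 3 rose and 0 fell, led by CYP79F1 (10.9 FPKM in rbm25-1 and 7.01 FPKM in WT). Of 9 genes of camalexin and indole glucosinolates PAD3 rose. With ABA 10 salicylate genes and 9 aliphatic glucosinolate genes were higher in rbm25-1 and 0 lower. The shares of all loci with ABA were larger too, 17.7% higher and 14.3% lower.

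Several genes of the iron deficiency response rose. Of 19 tested 6 rose and 1 fell, where 6.15% of all loci rose and 7.2% fell, and the median log2 ratio was 0.34. The counts were 5 higher and 0 lower with the adjustment within the table. IRT1, the iron transporter of the root surface, had 3.04 FPKM in rbm25-1 and 0.372 FPKM in WT, and NAS2, for synthesis of the metal chelator nicotianamine, had 3.93 FPKM in rbm25-1 and 1.32 FPKM in WT. The peptide genes IMA1 and IMA2, which signal iron shortage, rose to 6.10 and 10.7 FPKM in rbm25-1, against 2.96 and 3.68 FPKM in WT. FIT, the transcription factor that activates uptake genes, fell to 3.68 FPKM in rbm25-1, against 4.91 FPKM in WT, a call lost with the adjustment within the table. Of 10 root markers CASP5 rose to 10.13 FPKM in rbm25-1, against 4.92 FPKM in WT, CASP4 fell to 4.31 FPKM, against 6.79 FPKM in WT, on the authors' adjustment only, and the markers summed to 178 FPKM in rbm25-1 and 176 FPKM in WT.

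Genes of the light-harvesting antenna, which feeds light energy to the photosystems, were higher. Of 19 tested 9 rose and 0 fell, where 6.15% of all loci rose, and the median log2 ratio was 0.39. The count was 7 with the adjustment within the table. LHCB2.1 had 170 FPKM in rbm25-1 and 72.6 FPKM in WT, LHCB4.2 had 2469 FPKM in rbm25-1 and 1675 FPKM in WT, and LHCA4, of photosystem I, had 5202 FPKM in rbm25-1 and 3325 FPKM in WT. Copies of LHCB1 and of LHCB2 are nearly identical, so reads may have been split between them. The green tissue markers moved with this group, as all 5 stood above WT, 2 of them called (1 with the adjustment within the table), with a sum of 13497 FPKM in rbm25-1 and 11084 FPKM in WT, and their part in the result was not tested. Of 12 genes of the plastid genome 3 rose and 0 fell (1 rose with the adjustment within the table), and of 9 of the mitochondrial genome 1 rose and 0 fell. In bulk tissue, more cells of a type and more RNA per cell cannot be told apart.

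Flowering and clock genes changed in both directions or upwards. FLC, the central repressor of flowering, fell to 0.784 FPKM in rbm25-1, against 3.28 FPKM in WT, and had a log2 ratio of -1.88 with ABA in the authors' deposited table. The repressors MAF4 and SVP also fell, to 58.1% and 81.6% of WT, while SOC1, a promoter of flowering, rose 1.36-fold, SUF4 1.38-fold and MAF1 1.23-fold. Of 13 clock genes 4 rose and 0 fell, where 6.15% of all loci rose, with LNK2 at 7.99 FPKM in rbm25-1 and 3.92 FPKM in WT, LNK1 at 3.05 FPKM in rbm25-1 and 1.79 FPKM in WT, and PRR7 and RVE1 at 1.61-fold and 1.35-fold. Without ABA, MAF1, MAF4, SUF4, SVP and RVE1 lost their call with the adjustment within the table. The labels do not give the hour of harvest of each group.

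Of 25 tested genes of ABA perception and relay 5 (20%) were called, against 13.3% of all loci, and 1 with the adjustment within the table. Of 9 receptors PYR1 and PYL2 rose 1.31-fold and 1.65-fold, of 6 clade A phosphatases PP2CA and HAI1 fell to 77.9% and 76.3% of WT, and of 10 SnRK2 kinases SNRK2.9 fell to 80.5% of WT. The gene that kept its call with that adjustment was PYR1. Stomatal lineage markers had 0 of 8 called by the authors' Cuffdiff q and 1 with an unadjusted p under 0.05. Seed markers had 1 of 2 called, the storage protein gene CRA1, which fell to 0.453 FPKM in rbm25-1, against 1.95 FPKM in WT, and of 2 flower markers SEP3 rose 1.63-fold. As a check of the seedling label, green tissue markers ranged from 811 to 7288 FPKM in rbm25-1 and from 612 to 5905 FPKM in WT. The 2 tested seed markers and 2 tested flower markers reached at most 3.19 FPKM in rbm25-1 and 1.95 FPKM in WT. CRU3 and OLEO1 of 4 seed markers, and AP1, AP3, AG, SEP1 and SEP2 of 7 flower markers, were not tested.

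Among genes called with at least 1 FPKM in both groups, the 10 largest rises and the 10 largest falls were mostly outside these lists. Below that level in 1 group, IRT1, CRA1, CBF1 and FLC had ratios as large as some of them, with log2 values of 3.03, -2.11, -2.09 and -2.06 in the authors' deposited table. Uncharacterized genes led both directions, with AT3G51642 at 97.7 FPKM in rbm25-1 and 2.55 FPKM in WT, and the noncoding AT2G01422 at 1.26 FPKM in rbm25-1 and 31.2 FPKM in WT. With ABA, AT3G51642 had 2.66 FPKM in rbm25-1 and 6.75 FPKM in WT, the opposite direction, and AT2G01422 had 1.32 FPKM in rbm25-1 and 6.39 FPKM in WT. HEI10, for meiotic crossovers, had 3.29 FPKM in rbm25-1 and 24.6 FPKM in WT, and with ABA 2.18 FPKM in rbm25-1 and 21.5 FPKM in WT. PCR1, a cadmium resistance gene, had 43.5 FPKM in rbm25-1 and 7.58 FPKM in WT, and AT5G35480, an uncharacterized gene, had 70.5 FPKM in rbm25-1 and 20.5 FPKM in WT. DIC2, a mitochondrial carrier, QQS, AT4G27657, ZAT10 and AT4G08093 completed the falls with RBM25, ULP1D and CAF1a, with DIC2 at 10.8% and ZAT10, a zinc finger repressor, at 26.3% of WT. AT4G33720, AT4G04293, AT2G01022, AT2G31141, AT1G15405, LHCB1.1 and LURP1 completed the rises, of which AT2G31141 and AT1G15405 lost their call with the adjustment within the table.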

How the data were processed

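Poly(A) RNA of 12 samples in 4 groups of 3 was sequenced. Per the submitters' processing notes, the tools were Trimmomatic 0.32, TopHat2 2.0.13, Cufflinks 2.2.1 and Cuffdiff, with the genome TAIR10, and no settings are stated. Used here were 4 of the 6 deposited files. Per the file headers, the gene tables hold the authors' FPKM per group, their log2 ratio of FPKM (no pseudocount), p-value and adjusted p (q), and the splicing tables hold the authors' PSI in percent, its difference (a score in points) and an unadjusted p. Neither the labels nor the headers name the program behind PSI, its test or a minimum of reads. The depth per sample is unknown, so precision is known only through the authors' p-values.

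Computed here with Python, pandas and Biopython were ratios, counts, Benjamini-Hochberg values (tested on simulated data) and splice site scores. Scores are summed log2 odds over 3 exon and 6 intron bases (donor) or 20 intron and 3 exon bases (acceptor), from 136308 annotated introns of TAIR10.1. Genes were called at q under 0.05. Among 5777 p-values found in the untreated and the ABA gene files, 5766 had equal q, so the authors' adjustment appears to span comparisons. Events were assigned to genes by position, because 480 deposited identifiers did not match their position. Loci that merge genes were left out of lists. Members, lists and named genes (the extreme ratios at 1 FPKM or more in both groups, and up to 4 called members a list, with others added for their role) were chosen with earlier results of these data known. Events were named by size of difference, with others added for their role after their values were seen. Alternatives covered the adjustment, thresholds, low values, centring and which events count.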

Additional observations from a re-analysis of the deposited data

How the results depend on the processing

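No paired analysis was possible because the deposited tables hold 1 value per group, and for the same reason no replicate could be left out. With Benjamini-Hochberg within the untreated table, the counts fell to 516 genes higher and 610 lower, and those sharing their sign with ABA to 841; of 95 listed or named genes called, 67 stayed called. At q under 0.01, 600 were higher and 723 lower. At least 2-fold changes numbered 58 higher and 41 lower with log2(FPKM + 1), and 63 and 48 from 5 FPKM in the higher group. Of genes changed at least 2-fold, 182 shared their sign with ABA. At p under 0.01 there were 156 splicing events, 40 cassette exons with lower and 1 with higher inclusion, 10 introns with higher and 9 with lower retention, and 129 events sharing their sign with ABA. At a difference of at least 10 points these were 282, 69 and 2, 37 and 23, and 228. Among exons whose junctions the deposited table marks as known, chosen after seeing the data, 27 were lower and 2 higher. The lean of cassette exons towards skipping held under every alternative run. The other 29 counts stayed within 1.5 times. Smaller sets follow from stricter thresholds by construction; the cause of other shifts was not tested. Without depth, differences in low PSI counts cannot be bounded.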
